A study of Mus musculus with 10 samples.

Results

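Nuclear receptors are transcription factors, many of which are switched by a small fat-soluble ligand. A set of 36 of their genes was followed in open chromatin of the developing mouse cochlea: steroid hormone, oestrogen-related, retinoic acid, Ror, Rev-erb, Ppar, sterol and vitamin D, Coup-Tf, Nr4a and other orphan receptors. Thyroid hormone and retinoid X receptors, and other receptors outside this set, were not analysed here. Only Esrrb, an oestrogen-related receptor gene outside the set, enters a count below, as a marker of the stria. Overlapping peaks of the 3 deposited lists (1 bp or more shared) formed 1 region. It was given to the protein-coding gene whose body lay nearest to its middle, within 100 kb. Of the 59245 regions with such a gene, 216 went to 34 of the 36 receptor genes. Nr1i3, the xenobiotic receptor Car, and Hnf4g, a relative of the liver receptor Hnf4a, received none.

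The assay was ATAC-seq, in which a transposase inserts adapters into accessible DNA. It was run on nuclei of the whole cochlea, both sides combined, of single CD1 mice, an outbred stock. There were 3 animals at postnatal day 2 (P2), 3 at P5 and 4 at P8, all ages before the onset of hearing. The labels name no genetic modification, no treatment and no sort of a cell type, and the study as a whole is about delivering GJB2, which encodes connexin 26, to particular cell types.

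Each age is represented by 1 peak list, with 52085, 47683 and 43878 peaks at P2, P5 and P8, so no difference between ages has a replicate check and no test was made. The lists hold no read counts, the depth behind them is unknown, and the shorter lists alone can turn regions into losses. Intervals below are Wilson 95% intervals and cover counting error only. In bulk tissue, a change in a cell type's share and a change within its cells cannot be told apart. Every list of cochlear markers (hair cell, supporting cell, stria, otic mesenchyme, spiral ganglion and Schwann cell) had called regions at every age. Several of these lists changed over the same days, in which all regions with a gene numbered 48101, 43556 and 40537 at P2, P5 and P8. Stria genes had 41, 32 and 27 regions, hair cell genes 23, 16 and 15, and Schwann cell genes 25, 17 and 18. Supporting cell genes had 27, 23 and 26, otic mesenchyme genes 22, 17 and 21, and spiral ganglion genes 12, 11 and 10. Markers of neighbouring tissues changed too. Bone genes had 24, 26 and 32 regions, brain neuron genes 24, 14 and 12, and skeletal muscle genes 11, 7 and 5. Lists for macrophages, with 6, 8 and 7 regions, and for liver, with 2, 2 and 4, were also counted. The part of any of these in the receptor results was not tested.

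Most nuclear receptors bind DNA as pairs on repeats of a short core motif, AGGTCA or a close variant of it. Without ligand many of them hold corepressors at their target genes, and ligand exchanges these for coactivators. In the inner ear, retinoic acid acts in early patterning, oestrogen-related receptors are known for roles in the ion-transporting epithelium and in hearing, and Ror and Rev-erb receptors act on shared sites of clock genes.

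The stretches just before the start sites of 7 receptor genes are printed as examples of starts called at all ages, at some and at none. The comparison of promoters below rests on all 34 receptor genes with a window. Each stretch is the 250 bases before a RefSeq start, on the gene's strand, from a RefSeq table of build GRCm38.p6. Capitals mark AGGTCA or its complement TGACCT and, in Rarb, the paired variants of the motif described with that gene. Rarb, Rarg, Esrra and Nr1d2 were called there at all 3 ages, Pparg and Nr4a3 at P2 and P8 only, and Nr1h4 at none.
Rarb, chr14:16575477-16575726, minus strand: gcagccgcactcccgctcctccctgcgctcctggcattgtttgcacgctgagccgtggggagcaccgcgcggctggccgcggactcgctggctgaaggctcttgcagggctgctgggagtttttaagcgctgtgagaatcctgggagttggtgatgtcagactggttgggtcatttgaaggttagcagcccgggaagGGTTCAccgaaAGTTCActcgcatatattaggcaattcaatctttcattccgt
Rarg, chr15:102257523-102257772, minus strand: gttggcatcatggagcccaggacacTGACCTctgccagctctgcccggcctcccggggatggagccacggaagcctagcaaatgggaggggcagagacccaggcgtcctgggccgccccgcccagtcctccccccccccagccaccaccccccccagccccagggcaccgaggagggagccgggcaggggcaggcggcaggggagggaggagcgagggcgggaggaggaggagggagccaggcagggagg
Esrra, chr19:6921809-6922058, minus strand: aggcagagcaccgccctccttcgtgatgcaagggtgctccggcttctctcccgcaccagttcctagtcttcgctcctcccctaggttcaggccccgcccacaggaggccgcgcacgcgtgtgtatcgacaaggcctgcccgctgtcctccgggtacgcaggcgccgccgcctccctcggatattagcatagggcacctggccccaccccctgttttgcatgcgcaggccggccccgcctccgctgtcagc
Nr1d2, chr14:18239107-18239356, minus strand: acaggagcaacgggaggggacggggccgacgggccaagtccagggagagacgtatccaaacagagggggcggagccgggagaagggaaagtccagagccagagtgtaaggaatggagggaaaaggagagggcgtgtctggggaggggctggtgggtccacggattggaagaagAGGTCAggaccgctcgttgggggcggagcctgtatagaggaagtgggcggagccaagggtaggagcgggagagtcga
Pparg, chr6:115360894-115361143, plus strand: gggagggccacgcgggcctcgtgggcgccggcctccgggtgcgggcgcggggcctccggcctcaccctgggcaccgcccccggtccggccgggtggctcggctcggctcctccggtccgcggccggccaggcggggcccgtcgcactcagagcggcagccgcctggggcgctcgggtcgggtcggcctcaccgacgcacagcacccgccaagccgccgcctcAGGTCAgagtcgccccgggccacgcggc
Nr4a3, chr4:48045055-48045304, plus strand: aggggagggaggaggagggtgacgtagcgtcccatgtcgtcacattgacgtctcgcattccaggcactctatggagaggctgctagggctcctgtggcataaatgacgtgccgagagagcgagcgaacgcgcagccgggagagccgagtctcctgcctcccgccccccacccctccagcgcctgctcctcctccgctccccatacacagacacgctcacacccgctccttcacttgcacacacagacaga
Nr1h4, chr10:89506659-89506908, minus strand: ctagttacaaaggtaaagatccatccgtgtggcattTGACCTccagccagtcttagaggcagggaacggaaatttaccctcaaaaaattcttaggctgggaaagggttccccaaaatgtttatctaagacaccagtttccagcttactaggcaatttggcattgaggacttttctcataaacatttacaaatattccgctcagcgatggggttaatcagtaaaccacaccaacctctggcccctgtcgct

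Together the receptor genes had 166, 151 and 144 regions at P2, P5 and P8. From P2 to P8 they gained 32 regions, called at P8 and not at P2, and lost 54, called at P2 and not at P8. The gains were 22.2% of the P8 regions (16.2 to 29.7%), where 19.0% of all P8 regions were gained. The losses were 32.5% of the P2 regions (25.9 to 40.0%), where 31.7% of all P2 regions were lost. As a set, then, the receptor genes changed at rates whose intervals hold the rates of all genes. Over the earlier step they gained 32 and lost 47 regions, or 21.2% of the P5 and 28.3% of the P2 regions, beside 15.8% and 23.8% over all genes. Over the later step they gained 30 and lost 37, or 20.8% of the P8 and 24.5% of the P5 regions, beside 15.7% and 21.5%. The 2 steps share the P5 list, so a region that P5 alone missed counts in both.

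Regions called at all 3 ages made up 100 of the 216 (46.3%, 39.8 to 53.0%), against 51.9% over all genes. Of the rest, 35 were called at P2 only (16.2%), 18 at P5 only (8.33%) and 18 at P8 only (8.33%). Over all genes these shares were 15.7%, 5.83% and 7.20%, each within the receptor interval. A further 19 were called at P2 and P5 (8.80%, against 9.99% over all genes) and 14 at P5 and P8 (6.48%, against 5.78%). The last 12 were called at P2 and P8 but not P5 (5.56%, 3.21 to 9.46%), against 3.53% over all genes. Changed regions were weak ones. A peak's strength is given as its within-list percentile, its place in its own list by the authors' ranking value, with 100 at the top. Where 3 percentiles or counts follow each other, they are those at P2, P5 and P8. Because the lists differ in length, a difference in percentile between ages is not a measure of change. The 32 gained regions had a median percentile of 27.4 at P8, with 6 in the upper 50% of the list, and the 54 lost regions had a median of 27.2 at P2, with 9 in the upper 50%. Weakness was not particular to receptor genes. Regions called at P2 only had a median of 16.9 over all genes, with 471 of 9331 in the upper 50%, beside 25.6 and 3 of 35 for receptors. Those called at P8 only had a median of 15.4 over all genes, with 225 of 4264 in the upper 50%, beside 27.2 and 2 of 18.

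Among single genes, from P2 to P8, 5 receptors gained more regions than they lost, 15 lost more, and 14 were even. Of these 14, 11 had none gained or lost between P2 and P8, though Esr2, Nr1h2, Nr2c2 and Hnf4a among them had another count at P5. Over all genes with a region, 13.9% gained more than they lost and 38.2% lost more. A net gain of at least 2 was seen at Nr1h4 and Pparg, and a net loss of at least 2 at Nr5a1, Nr6a1, Rarg, Nr4a3, Nr5a2, Esrrg, Ppara, Ppard and Nr2f2. Rora, Rarb and Ppara held 68 of the 216 regions (31.5%). Longer genes tended to hold more regions, with a Spearman rho of 0.456 across the 36 genes, which are not independent replicates.

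**Figure D1:**
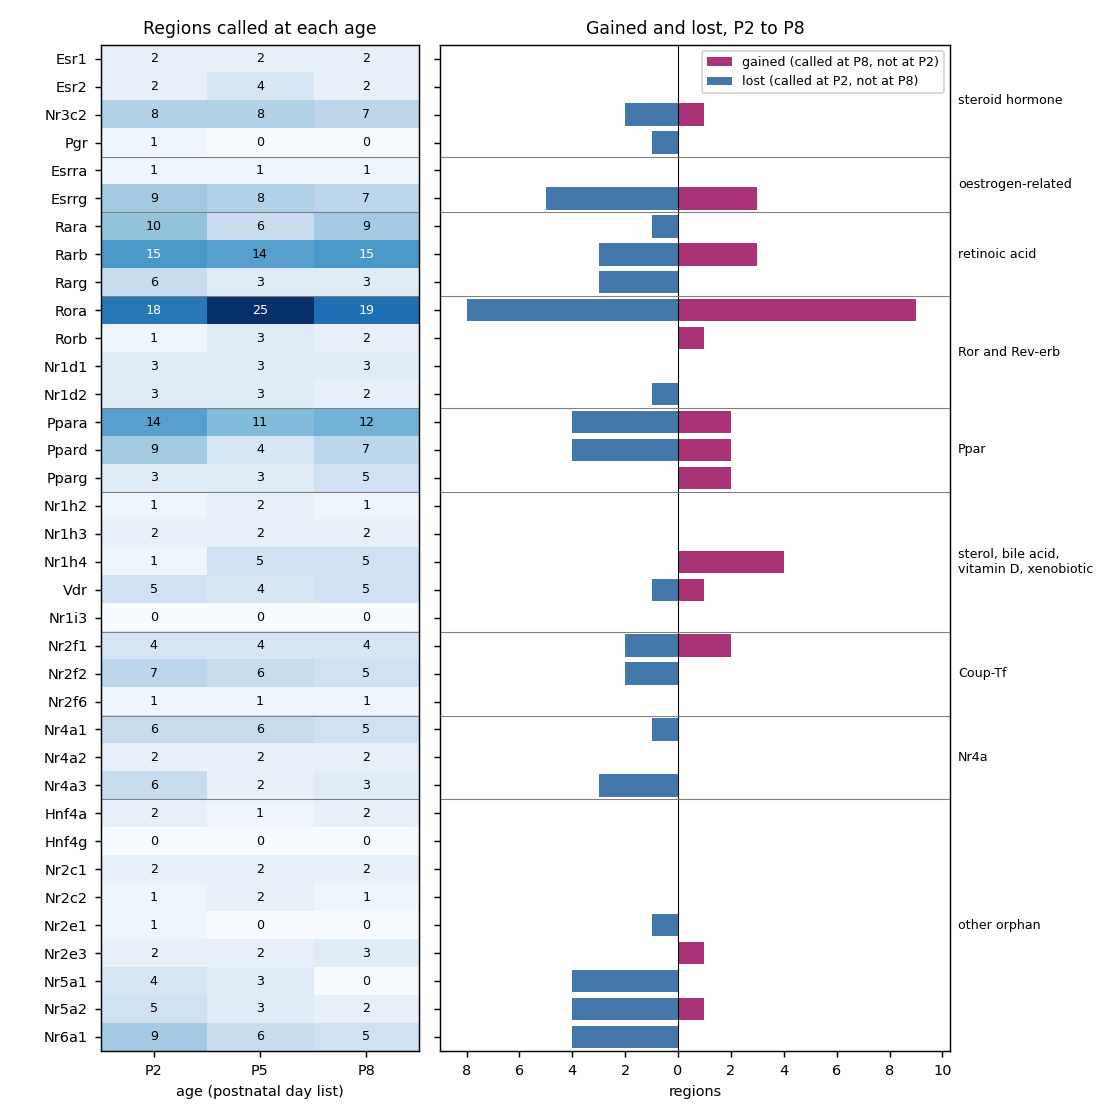
Left, number of regions called at P2, P5 and P8 for each receptor gene. Right, bars to the right count regions gained and bars to the left regions lost between P2 and P8, with families separated by grey lines. Rora changed most in both directions (9 gained, 8 lost), while Nr1h4 gained 4 with no loss and Nr5a1 and Nr6a1 each lost 4 with no gain.

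The steroid hormone receptors had 13, 14 and 11 regions at P2, P5 and P8, with 1 gained and 3 lost from P2 to P8. Gains were 25.0% of the changed regions (4.56 to 69.9%), against 33.5% over all genes. Most of the family's regions belonged to Nr3c2, the mineralocorticoid receptor, which binds aldosterone and corticosterone and controls sodium transport in epithelia. Nr3c2 had 8, 8 and 7 regions, and the region over its start (chr8:76901842-76902341) was among the strongest in the set, at percentiles 96.1, 96.2 and 96.6. Its single gained region (chr8:77132725-77133223), inside the gene, stood at percentile 63.2 at P8, which was high for a region called at 1 age. The 2 lost ones, also inside the gene, stood at 59.2 and 63.4 at P2 and were both still called at P5.

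The oestrogen receptors Esr1 and Esr2 had 2 regions each at P8 and at P2. Both regions of Esr1 lay inside the gene and neither of them at a RefSeq start. Esr2 differed in that its lasting regions lay over its start, at percentiles 46.9, 40.7 and 14.1, and 739 bp before it, at 51.5, 51.3 and 5.5. A further 2 inside the gene were called at P5 only. Pgr, the progesterone receptor, had 1 region, called at P2 only at percentile 26.1.

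Of the oestrogen-related receptors, which resemble oestrogen receptors but need no known natural hormone, Esrra and Esrrg differed in layout. Esrra, a regulator of mitochondrial genes, had 1 region, over its start, at percentiles 99.4, 98.9 and 98.7, the highest of any receptor gene at each age. Esrrg, a regulator of oxidative metabolism that is also linked to hearing, had 12 regions along its gene, with 9, 8 and 7 called at P2, P5 and P8. Of the family's changed regions from P2 to P8, 37.5% were gains (13.7 to 69.4%), against 33.5% over all genes. All of these changes were at Esrrg, which gained 3 and lost 5. Its lost regions were strong beside the median of 27.2 of all lost receptor regions: 4 of the 5 stood at percentiles 60.4, 65.7, 65.1 and 45.3 at P2, and the remaining one at 22.5. The gained ones stood at 31.5, 33.4 and 34.8 at P8. Esrrg kept its net loss, of 3, when only changed regions in the upper 50% of their list were counted, one of 3 receptor genes with a net change of at least 2 to keep its direction there.

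The 3 retinoic acid receptors had 31, 23 and 27 regions at P2, P5 and P8. They lost 10 and gained 2 in the earlier step, then gained 6 and lost 2 in the later one. Over both they gained 3 and lost 7, and 24 of their 31 P2 regions were kept at P8. The low count at P5 depended on the list setting. With lists of equal length the counts were 26, 23 and 27, beside 40822, 40186 and 40538 over all genes. With an IDR of at most 0.01 (a stricter limit on irreproducible discovery) they were 28, 22 and 19, beside 40984, 35900 and 33048.

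Rarg, the receptor gene of this family that is prominent in skin and cartilage, carried 3 of those losses. It had 6, 3 and 3 regions at P2, P5 and P8, and no region was gained. The lost regions were at P2 percentiles 9.8, 28.3 and 14.2: one over its downstream start (chr15:102246270-102246768), one inside the gene, and one 1471 bp before the gene. The kept ones included the region over its upstream start (chr15:102257483-102258063), the stretch printed above, at 16.8, 15.1 and 56.5. A stronger kept region (chr15:102246808-102247343) lay 575 bp from the downstream start, at 81.8, 81.8 and 83.2.

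Rara, the most broadly expressed receptor of the family, had 10, 6 and 9 regions at P2, P5 and P8. Of the 4 not called at P5, 3 were called again at P8 (chr11:98959380-98959880, chr11:98960117-98960623 and chr11:98966553-98967095), at P8 percentiles 45.9, 7.4 and 43.0. A further 2 regions that overlap Rara were given to a gene model lying within it, Gm46294. One of them covered a Rara start (chr11:98937338-98937838) and was called at all ages, at 85.4, 83.0 and 85.3, so the start counts as called although its region is not among the 10.

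Rarb, which retinoic acid itself induces through an element at its start, had 19 regions, with 15, 14 and 15 called. Of the 15 at P2, 12 were kept at P8, and 3 were gained and 3 lost. The region over its start (chr14:16575265-16575849) stood at 85.8, 81.1 and 86.9. The sequence printed above holds the variant GGTTCA and, after 5 bases, the variant AGTTCA, from 53 to 37 bases before the start. Pairs of these variants or of the core motif itself, in the same direction with 5 bases between, were searched on both strands and found in 1 of 50 windows of receptor genes and in 10 of 21263 windows of all protein-coding genes (0.0470%). A window here is 250 bases before to 50 after a RefSeq start. The 1 receptor window is that of Rarb, whose own pair holds both variants searched. Its match was therefore fixed in advance, and these shares are no test of the element. Another of the 10 belongs to Cyp26a1, the enzyme that breaks retinoic acid down. The other strong regions of Rarb lay far from that start. One inside the gene (chr14:16840898-16841396), 265671 bp away, stood at 73.7, 77.3 and 72.3, and one beyond the gene's upstream end (chr14:17172700-17173200) at 85.3, 77.8 and 76.4. The gained regions were 2 weak ones at P8 percentiles 9.3 and 2.2 and one at 60.7 that P5 also called (chr14:16776882-16777382).

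**Figure D2:**
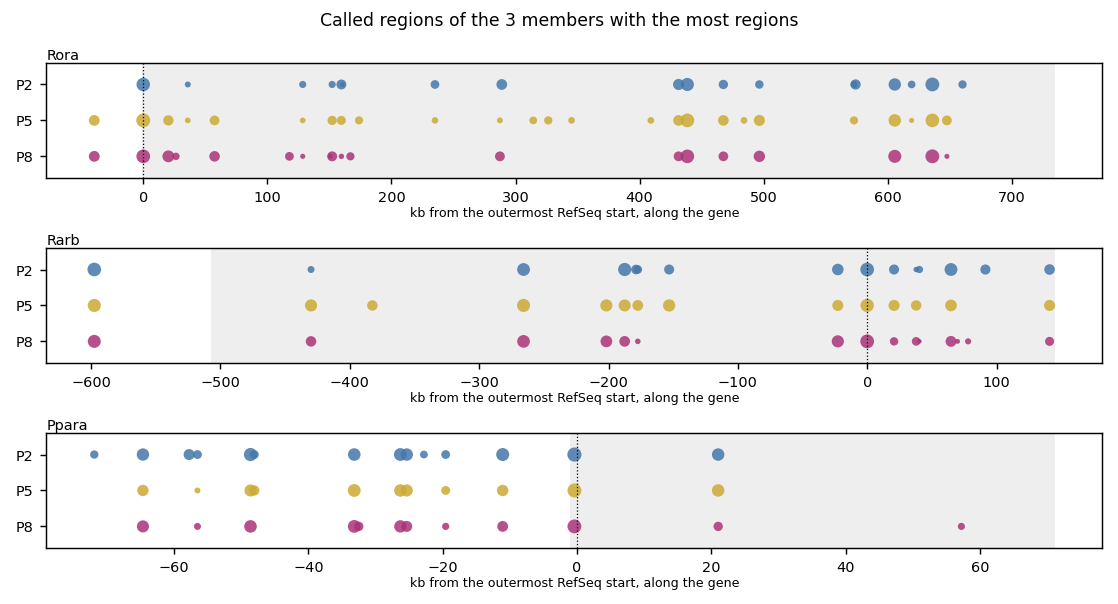
Regions of Rora, Rarb and Ppara, the receptor genes with the most regions, at their distance in kb from the outermost RefSeq start along the gene. One row of points per age; a larger point is a higher within-list percentile, grey is the gene body and dotted lines are RefSeq starts. Inside the gene lay 32 of the 33 regions of Rora and 18 of the 19 of Rarb, while 13 of the 16 regions of Ppara lay upstream.

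Ror receptors activate and Rev-erb receptors repress through the same response elements. Together their genes had 25, 34 and 26 regions at P2, P5 and P8. They gained 13 and lost 4 in the earlier step and gained 4 and lost 12 in the later one, the reverse of the retinoic acid receptors. The earlier gains were 38.2% of the P5 regions (23.9 to 55.0%), against 15.8% over all genes. The later losses were 35.3% of the P5 regions (21.5 to 52.1%), against 21.5%. From P2 to P8 the family gained 10 and lost 9, or 52.6% gains (31.7 to 72.7%), against 33.5% over all genes. With lists of equal length the counts were 21, 30 and 26, and with an IDR of at most 0.01 they were 23, 24 and 20, so the higher count at P5 was there with equal lengths and small at the stricter limit.

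Rora, known for its role in cerebellar development and in the clock, held 33 of these 42 regions and most of the changes, with 18, 25 and 19 called. Of the 33, 10 were called at all ages and 6 at P5 only. The P5-only regions stood between percentiles 12.8 and 25.3, all in the lower 50% of the list. The strongest lasting regions were the one over the start (chr9:68653361-68653969), at 83.1, 89.3 and 86.1, and 2 deep in the gene. Of these, chr9:69289587-69290108 stood at 87.8, 85.5 and 88.1, and chr9:69092022-69092625 at 77.9, 86.6 and 85.1. The 9 gained regions included 5 that P5 also called: 3 near the start of the gene at P8 percentiles 50.2, 62.0 and 47.1, and 2 farther in at 39.4 and 3.0. Of those 3, 1 lay 39592 bp upstream of the start and the others 20126 and 57377 bp into the gene.

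Rorb, a Ror receptor of retina and brain, had 1, 3 and 2 regions. The region at its start was called at all ages at 79.4, 77.6 and 81.0. The gained one (chr19:19040419-19040931), inside the gene, was called from P5 on, at 63.5 at P8 and 59.9 at P5. Nr1d1 and Nr1d2, the Rev-erb alpha and beta genes of the clock, changed little. Nr1d1 had 3 regions, all at all ages, between percentiles 61.1 and 90.2. Nr1d2 had 3, 3 and 2, and the region over the start printed above (chr14:18238899-18239402) stood at 98.3, 98.1 and 98.5.

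**Figure D3:**
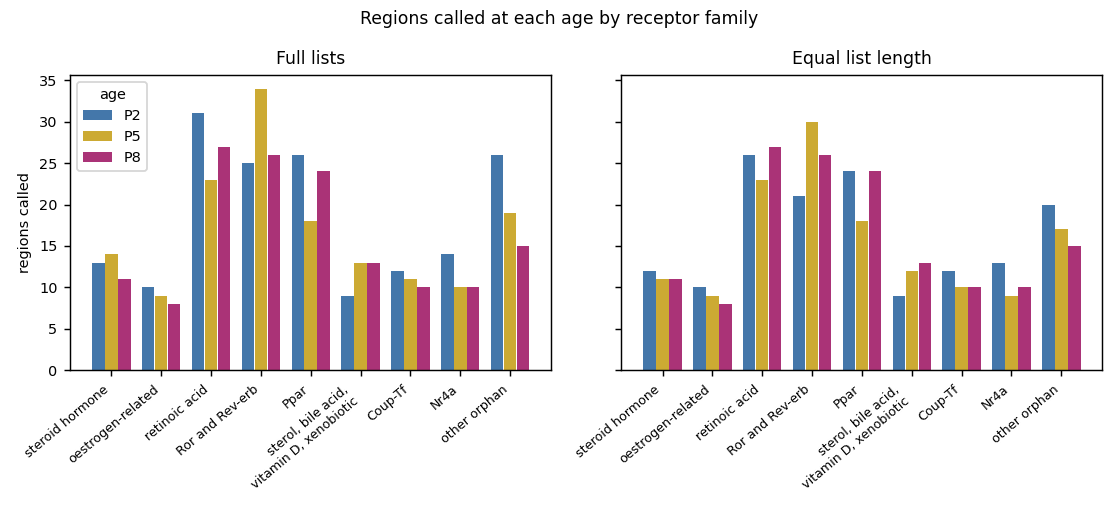
Regions called at P2, P5 and P8 in each receptor family, with the full lists on the left and with the lists held to equal length on the right. With full lists the Ror and Rev-erb genes were highest at P5 (34 regions), the retinoic acid and Ppar receptor genes lowest at P5 (23 and 18), and the other orphan receptors fell at each step (26, 19 and 15).

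The Ppar receptors, which bind fatty acids and pair with retinoid X receptors, had 26, 18 and 24 regions at P2, P5 and P8. They lost 10 and gained 2 in the earlier step, and gained 8 and lost 2 in the later one. The earlier losses were 38.5% of the P2 regions (22.4 to 57.5%), against 23.8% over all genes. The later gains were 33.3% of the P8 regions (18.0 to 53.3%), against 15.7%. This low count at P5 was also there with lists of equal length (24, 18 and 24) and with an IDR of at most 0.01 (24, 15 and 21). From P2 to P8 the family gained 6 and lost 8, or 42.9% gains (21.4 to 67.4%), against 33.5% over all genes.

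Ppara, the receptor that drives fatty acid oxidation, had 14, 11 and 12 regions. It gained 2 and lost 4 from P2 to P8. Of its 16 regions, 13 lay upstream, from 10.2 to 71.0 kb before the gene, and 8 of these were called at all ages. Non-coding genes lie in that stretch, among them the lncRNA gene Lncppara (chr15:85703773-85707524) and the microRNA genes Mirlet7c-2 and Mirlet7b. The upstream regions next to these could as well be theirs, and Ppara had a net gain of 1 when genes of any kind could take a region. The mature microRNAs are printed because 3 regions called at all ages (chr15:85702234-85702982, chr15:85709172-85709773 and chr15:85710173-85710674) flank their genes. Both belong to the let-7 family, which rises as many tissues mature, and capitals mark the seed, bases 2 to 8, which they share.
mmu-let-7c-5p: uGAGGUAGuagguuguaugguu
mmu-let-7b-5p: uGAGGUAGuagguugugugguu

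Those 3 regions stood at percentiles 71.0, 74.1 and 74.0, at 74.3, 69.6 and 68.4, and at 69.2, 65.4 and 51.8. The region at the Ppara start itself (chr15:85735132-85735639) stood at 91.9, 89.7 and 88.0, the strongest of the gene. The lost regions were all upstream, at P2 percentiles 25.6, 52.0, 30.0 and 21.0, and the gained ones stood at 35.8 and 16.1 at P8.

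Ppard, the broadly expressed member of the family, had 9, 4 and 7 regions at P2, P5 and P8. It lost 5 regions to P5, none of them above percentile 26.8 at P2, and the 4 that P5 called were called at all ages. From P2 to P8 it gained 2 and lost 4. Its start region (chr17:28232405-28232903) stood at 85.7, 83.1 and 80.6.

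Pparg, the regulator of fat cell formation, was one of the 2 receptor genes with a net gain of at least 2. It had 3, 3 and 5 regions, with 2 gained and none lost from P2 to P8. The gained ones were chr6:115449986-115450517 inside the gene, at 20.1 at P8 and 41.3 at P5, and chr6:115501006-115501504 beyond its end, at 31.1 at P8. The region at its upstream start (chr6:115360987-115361496) was called at P2 and P8 but not at P5, at the low percentiles of 19.3 at P8 and 9.5 at P2. With lists of equal length Pparg had 1, 3 and 5 regions and gained 4. Both of its upstream starts hold AGGTCA within the 250 bases before them, 28 bases before the one printed above. The motif, on either strand, was in 8 of 50 windows of receptor genes (16%) and in 14.7% of all windows. A match describes the letters only and says nothing of binding.

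The receptors of sterols, bile acids, vitamin D and foreign compounds had 9, 13 and 13 regions at P2, P5 and P8. They gained 5 and lost 1 from P2 to P8, so 83.3% of the changed regions were gains (43.6 to 97.0%), against 33.5% over all genes. This was the family with the highest share of gains, and 4 of the 5 gains belonged to Nr1h4. The share turned to 44.4%, with 8 gained and 10 lost, when a region counted for every gene within 50 kb, and no changed region of the family stood in the upper 50% of its list.

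Nr1h4, the bile acid receptor Fxr, had 1, 5 and 5 regions at P2, P5 and P8. The region called at all ages (chr10:89461797-89462304), inside the gene, stood at 34.5, 60.5 and 51.5. The gained regions were all weak: 3 were called at both P5 and P8, at P8 percentiles 4.5, 25.4 and 10.7, and the other was called at P8 only, at 15.1. The strongest of them (chr10:89533346-89533895) had its middle at the upstream end of the gene body. No peak overlapped the Nr1h4 start window printed above at any age. With an IDR of at most 0.01 the gene had 1, 2 and 3 regions.

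Vdr, the vitamin D receptor, which controls calcium handling and bone growth, had 5, 4 and 5 regions, with 1 gained at P8 percentile 40.1 and 1 lost at P2 percentile 35.3. The region at its start stood at 52.9, 45.7 and 52.0. Nr1h2 and Nr1h3, the oxysterol receptors Lxr beta and alpha, showed no change from P2 to P8. Nr1h2 had a region at its start at 80.5, 88.5 and 87.5, and Nr1h3 had 2 regions inside the gene with no peak over a start window.

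The Coup-Tf receptors, orphan repressors of neural and mesenchymal development, had 12, 11 and 10 regions, with 2 gained and 4 lost from P2 to P8. Gains were 33.3% of the changed regions (9.68 to 70.0%), near the 33.5% over all genes. None of the 7 regions of Nr2f1 lay inside the gene. They lay over lncRNA genes on both sides, and those called at all ages, 2864 and 5084 bp upstream, stood at 59.1, 58.3 and 59.6 and at 66.9, 68.4 and 56.5. Nr2f1 had 4 regions at each age, with 2 gained and 2 lost. Nr2f2 had 7, 6 and 5 regions, with 2 lost at P2 percentiles 42.4 and 27.8. Its strongest region (chr7:70361585-70362148), inside the gene, stood at 87.4, 87.0 and 88.2, and the other 6 lay downstream, up to 84714 bp away. Nr2f6 had 1 region, at its start, at 86.6, 85.1 and 86.5.

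The Nr4a receptors, immediate early genes that act without a bound ligand, gained no region and lost 4 from P2 to P8, with 14, 10 and 10 called. The interval of the share of gains, up to 49.0%, holds the 33.5% over all genes. The losses were 28.6% of the P2 regions (11.7 to 54.6%), against 31.7% over all genes. Nr4a3 carried 3 of the losses. It had 6, 2 and 3 regions at P2, P5 and P8, and the lost ones, 65319 and 21846 bp before the gene and 1064 bp after it, stood at 11.4, 27.5 and 18.2 at P2. Its strongest region (chr4:48043098-48043596), 1731 bp before the gene, stood at 94.7, 95.3 and 94.5. The neighbouring region over its start (chr4:48044490-48045347) was called at P8 and P2 but not P5, at 16.9 at P8 and 57.3 at P2. Nr4a1 had 6, 6 and 5 regions, the strongest 7478 bp before the gene at 96.7, 94.6 and 93.3. Nr4a2 had 2 regions at every age inside the gene. A region over its start, at 80.7, 76.6 and 71.3, had gone to an overlapping gene model, LOC105244150.

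The other orphan receptors had 26, 19 and 15 regions at P2, P5 and P8, and lost 13 while gaining 2 from P2 to P8. The share of gains, 13.3% (3.74 to 37.9%), was low beside 33.5% over all genes, with an interval that holds that value. The losses gathered at Nr5a1, Nr6a1 and Nr5a2. With lists of equal length the family had 20, 17 and 15 regions, with 4 gained and 9 lost.

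Nr5a1, steroidogenic factor 1 of gonad and adrenal, and Nr6a1, the germ cell nuclear factor of early embryos, are neighbours on chromosome 2. Nr5a1 had 4, 3 and none regions at P2, P5 and P8, the only receptor gene with more than 1 region at P2 and none at P8. All 4 lay outside the gene on its lower-coordinate side, 920 to 23251 bp away, and 3 of them over the pseudogene Adgrd2-ps. The strongest (chr2:38688696-38689206) was not called at P8 and stood at 30.8 at P5 and 71.0 at P2. Nr6a1 had 9, 6 and 5 regions, all inside the gene, with 4 lost and none gained. The lost ones stood at P2 percentiles 23.3, 17.4, 17.4 and 28.0. Regions called at all ages included those at its upstream start (chr2:38926164-38926676), at 88.7, 89.1 and 89.3, and over the antisense gene Nr6a1os (chr2:38822917-38823445), at 89.9, 86.7 and 69.9.

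Nr5a2, liver receptor homologue 1, had 5, 3 and 2 regions. It lost 4 and gained 1 from P2 to P8, and the lost ones, all outside the gene, were weak, at P2 percentiles 9.1, 9.8, 28.6 and 1.2. With lists of equal length it had 2, 3 and 2 regions and no net change, so its loss rested on the low end of the P2 list.

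Of the other genes of this group, Nr2c1 and Nr2c2, the testicular receptors 2 and 4, each had a start region called at all ages. For Nr2c2 it was among the strongest in the set, at 97.4, 97.8 and 97.2, and for Nr2c1 it stood at 86.7, 83.9 and 81.6. Nr2e3, a receptor of photoreceptor cells, had 2, 2 and 3 regions, and the gained one (chr9:59939991-59940489), beyond its end, stood at 59.2 at P8. Nr2e1, known as Tlx, had a single region, called at P2 only at 50.5. Hnf4a had 2, 1 and 2 regions, both over the antisense gene Hnf4aos, the stronger at 79.9, 77.8 and 68.0.

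**Figure D4:**
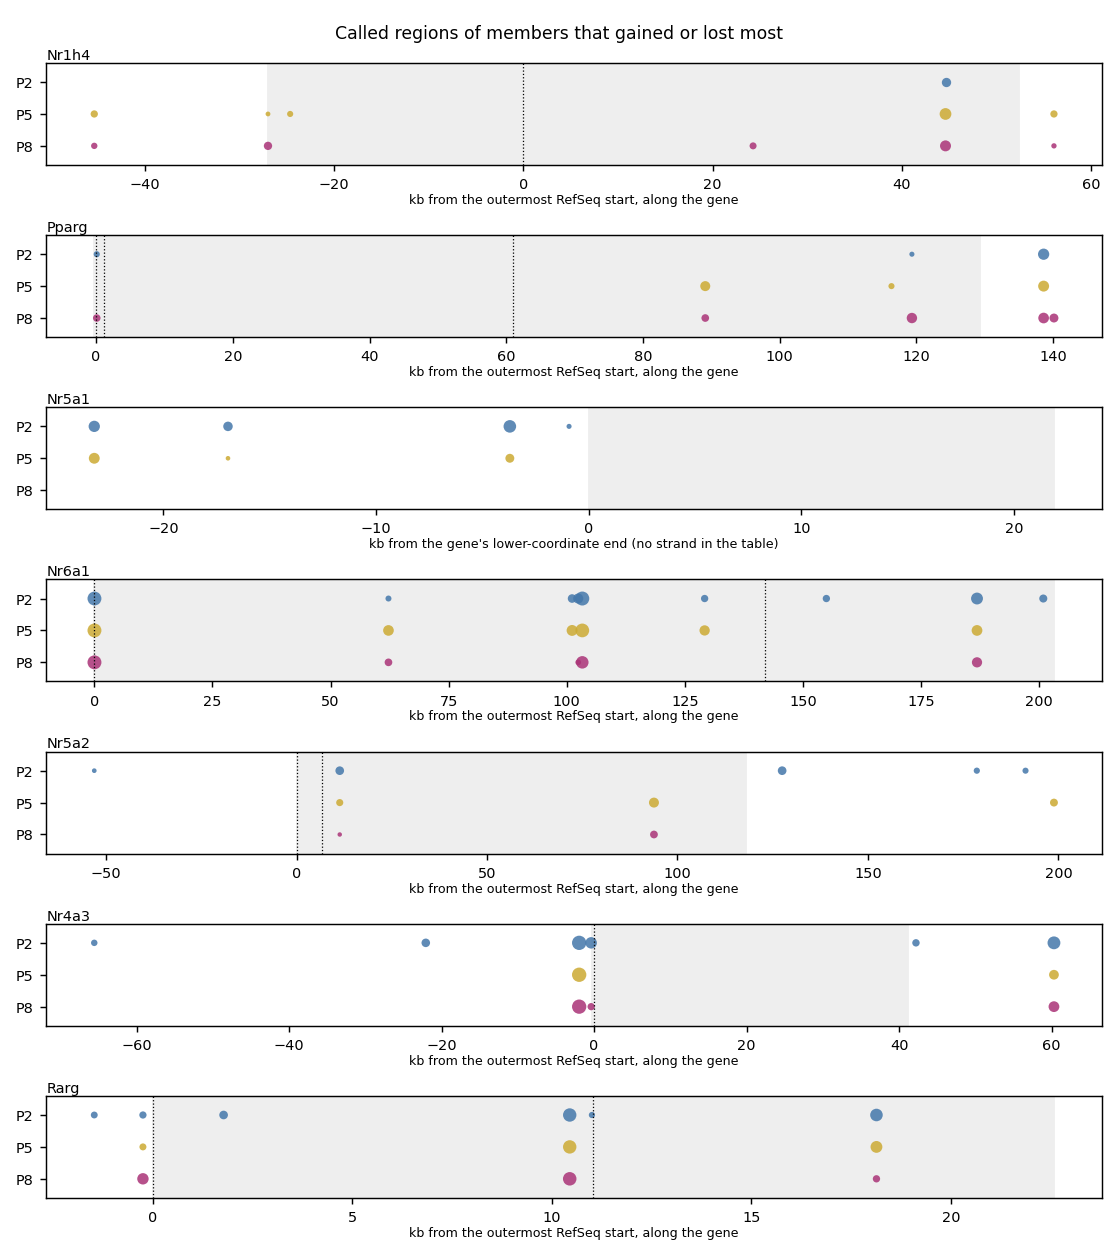
Regions of 7 receptor genes with a net change of at least 2 between P2 and P8, drawn as distance in kb from the outermost RefSeq start (for Nr5a1, whose strand the tables used here do not give, from its lower-coordinate end). One row per age; larger points are higher within-list percentiles, grey is the gene body and dotted lines are RefSeq starts. Nr1h4 had 1 region at P2 and 5 at P5 and P8, while Nr5a1 had none at P8 and 4 at P2.

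Start sites were compared across receptors whatever gene a region had gone to. A gene was called at its start when a peak overlapped one of its windows by at least 1 bp. RefSeq windows were in the table for 34 receptor genes (50 windows), the exceptions being Nr5a1 and Hnf4g. At P2, P5 and P8, 23, 21 and 23 of the 34 were called at a start, or 67.6%, 61.8% and 67.6%, where 54.5%, 51.8% and 51.6% of all genes with a window were called. At all 3 ages 21 receptors were called (61.8%, 45.0 to 76.1%), against 49.4% over all genes.

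At no age were 11 receptors called at a start: Esr1, Pgr, Nr1h3, Nr1h4, Nr1i3, Nr2f1, Nr2f2, Hnf4a, Nr2e1, Nr2e3 and Nr5a2. Of these, Nr2f1 and Nr2f2 had lasting regions close by or inside the gene, as described above, and Nr1i3 had no region. The gene bodies of Nr1h3, Nr1h4 and Nr2e3 reach well upstream of their outermost window, so a start at those upstream ends was not examined. At Nr1h4 a region called at P5 and P8 (chr10:89533346-89533895) covered that end. Called and uncalled windows differed in base composition; the uncalled ones include further starts of called genes. The 24 windows called at all ages had a median of 20 CpG dinucleotides and 64.7% G+C, and the 23 called at no age had medians of 6 and 54%. Over all genes the medians were 22 and 62.3% for called and 4 and 49% for uncalled windows, the same order.

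**Figure D5:**
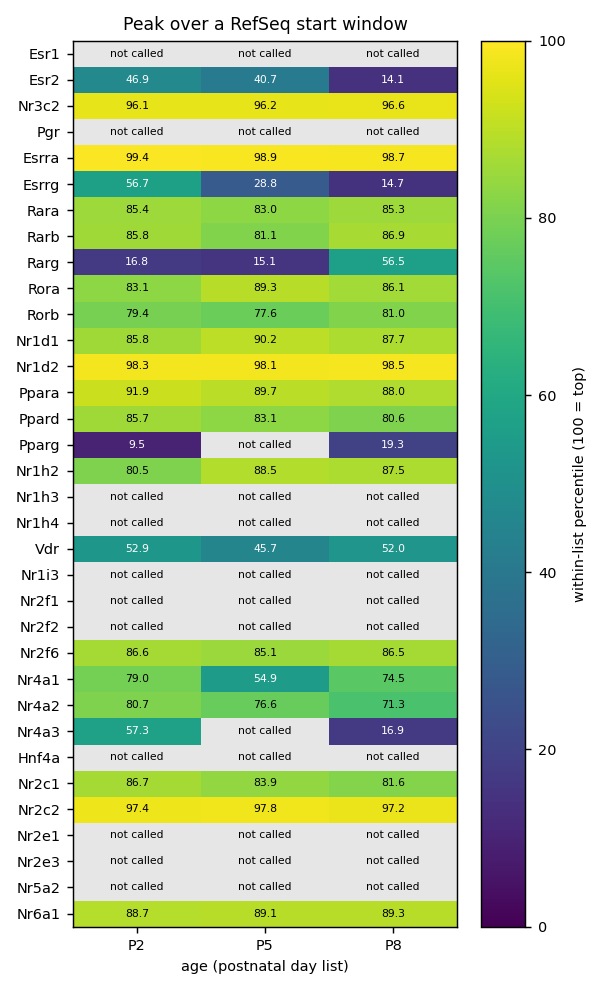
Within-list percentile of the strongest peak over a RefSeq start window of each of 34 receptor genes at P2, P5 and P8, with 100 at the top of a list; grey cells had no peak. Esrra, Nr1d2, Nr2c2 and Nr3c2 stood above 96 at every age, 11 genes had no call at any age, and Pparg and Nr4a3 had none at P5.

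Regions within 1 kb of a RefSeq start lasted more often in both sets. Of the 32 such receptor regions, 24 were called at all ages (75.0%, 57.9 to 86.7%), and of the 184 farther away 76 were (41.3%, 34.4 to 48.5%). Over all genes the shares were 80.3% and 44.5%. Receptor genes had fewer of their regions near a start, 14.8% against 20.8% over all genes. By place, 149 of the 216 regions lay inside the gene, 41 upstream and 22 downstream. The other 4, those of Nr5a1, lay on the lower-coordinate side of a gene without a known strand. The middle of 36 lay over a non-coding gene. Places were not counted over all genes, and a region inside a gene is always nearest to it. These counts therefore show no trait particular to receptor genes.

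Genes that make ligands or read the receptors were listed for comparison, and their values shared the lists described above. The 12 genes of retinoic acid synthesis, transport and breakdown had 38, 30 and 30 regions at P2, P5 and P8, with 7 gained and 15 lost, a share of gains of 31.8% (16.4 to 52.7%), near the 33.5% over all genes. Crabp1, a retinoic acid binding protein, had 3 regions at P2 and none at P5 or P8. Aldh1a3, a retinoic acid synthesising enzyme, had 7, 1 and 4. Rdh10, which oxidises retinol, had 2, 3 and 4. In the list, 3 genes gained more than they lost and 6 lost more.

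The 14 coactivators and corepressors had 72, 70 and 76 regions, with 25 gained and 21 lost, a share of gains of 54.3% (40.2 to 67.8%), against 33.5% over all genes. Ppargc1a, the coactivator of Ppar and oestrogen-related receptors in mitochondrial biogenesis, had 12, 13 and 16 regions, with 6 gained and 2 lost. Tbl1xr1, a corepressor subunit that also serves in exchange for coactivators, had 3, 2 and 6. Ncoa2, a coactivator of steroid receptors, had 6, 5 and 4. In the list, 4 genes gained more than they lost and 4 lost more.

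The 15 clock genes, among them targets of Ror and Rev-erb, had 69, 58 and 61 regions, with 10 gained and 18 lost, a share of gains of 35.7% (20.7 to 54.2%), near the 33.5% over all genes. Arntl, the clock activator that both receptor kinds control, had 13, 8 and 10, and Bhlhe41, a clock repressor, 6, 3 and 3. Npas2, a partner of Arntl, had 6, 8 and 9. In the list, 3 genes gained more and 7 lost more, where 13.9% and 38.2% of all genes with a region did so.

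Targets of Ppar in lipid use, 11 genes, had 18, 18 and 17 regions, with 2 gained and 3 lost. Gains were 40.0% of the changed regions (11.8 to 76.9%), against 33.5% over all genes. The 10 targets of Lxr and vitamin D had 31, 32 and 30 regions, with 6 gained and 7 lost, or 46.2% gains (23.2 to 70.9%). Among them Scd1, a fatty acid desaturase, had 4, 6 and 6, and Mylip, which degrades lipoprotein receptors, 7, 7 and 4. Of 11 steroid synthesis genes 10 matched the gene table, with 11, 16 and 14 regions, 4 gained and 1 lost, or 80.0% gains (37.6 to 96.4%). Hsd11b1, which regenerates active glucocorticoid, had 1, 5 and 3 of these.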

How the data were processed

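The deposited files are 3 peak lists, 1 for each age (3 animals at P2, 3 at P5, 4 at P8), with no list per animal, so p-values and replicate errors could not be had. Per the submitters' processing notes, Trimmomatic 0.33, Subread 1.4.6-p3 and MACS2 2.1.0 were used with build mm10; settings, read shifting, filtering and the make-up of the inputs were not given in the sources used. All 3 lists have the 20 columns that the irreproducible discovery rate (IDR) method writes, which keeps peaks that rank alike in 2 inputs, and all peaks are 499 bp wide. Each peak's deposited ranking value, a −log10 p-value of the authors, served here to rank it in its own list. The IDR score that the authors deposited beside it, −log10 of the IDR, put every peak at 0.05 or less.

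Peak starts were taken as 0-based and 1 was added for printing, an assumption that can be off by 1 bp. Gene bodies, RefSeq starts and sequences came from RefSeq tables of GRCm38.p6, the same build as mm10, and all 36 genes matched by symbol. Regions, counts and Wilson intervals were computed in Python 3.11.15 with pandas 2.3.3, numpy 2.4.6 and scipy 1.17.1, after the scripts were tested on simulated lists. No test was made of any difference.

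The genes and lists, and the alternatives, were chosen with earlier results of these data known. Genes with a net change of at least 2, and the 3 with the most regions, are described region by region, the other receptors by counts, and of pathway lists up to 2 genes in each direction with a net change of at least 2, ties included; some genes that this rule takes are left out of the text. Values of other regions were chosen after they were seen. The alternatives were a 50% overlap, an IDR of at most 0.01, lists of equal length, only the upper 50% of a list, support from P5, limits of 20 kb and of 50 kb for every gene, and nearest gene ends; nearest genes of any kind, leaving out Rora or Ppara, and family counts per age under 2 of these settings were added after the data were seen.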

Additional observations from a re-analysis of the deposited data

How the results depend on the processing

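With 1 list for each age, depth is unknown, animals cannot be left out in turn, and the shorter later lists favour losses. No paired analysis was possible because each age has a single list. Of 104 alternatives of the shares of gains, 90 stayed within the interval of the main share. Where the main net change was at least 2, these also did not cross 50%. The share of Ror and Rev-erb receptors from P2 to P8, 52.6% with a net gain of 1, did cross it within its interval. It was 41.2% at an IDR of at most 0.01, 45.5% with every gene within 50 kb and 46.7% with genes of any kind. From P2 to P8, the share over all receptors was 48.2% with lists of equal length, a setting in which all genes gained 9547 regions and lost 9831. From P5 to P8 the receptor share was 54% with lists of equal length, where all genes gained 7409 and lost 7057. For the same step it was 53.3% by nearest gene end and 28.6% in the upper 50% of the list. Leaving out Rora or Ppara gave 33.3% and 37.5% from P2 to P8, beside 37.2% with both. By family from P2 to P8, equal list length gave 55.6% for retinoic acid receptors. The upper 50% of the list, with at most 3 changed regions left in each of these 4 families, gave 100% for retinoic acid and for Ror and Rev-erb receptors and 0% for oestrogen-related and Ppar receptors. Support from P5 gave 0% for steroid receptors and 100% for sterol, bile acid, vitamin D and xenobiotic receptors. Nearest gene end gave 0% for steroid receptors, the 20 kb limit 55.6% for Ppar receptors, and every gene within 50 kb 44.4% for sterol, bile acid, vitamin D and xenobiotic receptors.

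Of 11 receptor genes with a net change of at least 2, the direction was the same in 11 at 50% overlap and at an IDR of at most 0.01, in 10 with equal list length and by nearest gene end, in 9 at 20 kb and at 50 kb, in 8 with genes of any kind, in 7 with support from P5 and in 3 in the upper 50%. It turned at Ppara, to a net gain of 1, at 20 kb and with genes of any kind, and at Nr5a2, to a net gain of 1, with support from P5. Fewer regions or other genes take part under these settings by their construction; beyond that the cause was not tested.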
